A study of Mus musculus with 4 samples.

Results

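The cells described here are growth plate chondrocytes that were rich in the cartilage collagen transcript Col2a1 but low in both Ucma and Pth1r. The members were chosen by 6 limits on the measured levels of 7 genes from the single-cell library of the postnatal day 6 (P6) tibia. With levels as UMIs (counts of tagged transcript molecules) per 10000 UMIs of the cell, a member had at least 100 of Col2a1, under 10 of Ucma, under 5 of Pth1r and under 20 of Col10a1, together with at most 2 UMIs of Ptprc and under 5 UMIs of Top2a and Mki67 combined. The gene matrix held 14181 barcodes and 158281984 UMIs, and 8256 barcodes had at least 1600 genes and at most 10% mitochondrial UMIs. Of these, 428 cells met every limit (5.18% of the cells kept, exact Clopper-Pearson 95% interval 4.72 to 5.68%), and they made up 20.7% of the 2065 Col2a1-rich cells. The 6 limits used measured values, so the levels of the 7 genes are a description of the choice and not a result.

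All cells are from 1 library that was made from a male mouse, both of its tibiae (2) being pooled, and sequenced as 4 entries. The mouse carried Col10a1Cre;Rosa26-Tdtomato;Irx3 +/Δ;Irx5 +/-, which the labels call the heterozygous control, so every class compared below has this background and there was no wild-type sample. The Cre is driven by Col10a1 and switches on the tdTomato reporter in hypertrophic chondrocytes (HCs) and what descends from them, and the study writes the Irx3 deletion as one made in HCs. The tibia was digested without sorting and without the secondary ossification centres, and the position of a cell in the growth plate was not recorded. With 1 library there was no replicate, cells are not replicates, and no test was possible. Intervals are at 95% and cover counting error only. They are exact Poisson intervals for levels and Clopper-Pearson intervals for shares of cells. Those for ratios are symmetric about the log2 ratio and are not exact.

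The growth plate is a layered cartilage in which resting chondrocytes feed columns of flattened, dividing cells that later stop dividing, become pre-hypertrophic and then enlarge into HCs. PTHrP, made by resting cells, acts on the receptor encoded by Pth1r, and Indian hedgehog (Ihh), made by pre-hypertrophic cells, signals back through Ptch1 and the Gli factors. Ucma encodes a secreted protein of upper-zone cartilage and Pth1r is most abundant at the pre-hypertrophic step, so the limits leave the Col2a1-rich cells between these classes. Ucma-rich cells (880; Ucma at least 10, Pth1r under 5) and Pth1r-high cells (396; Pth1r at least 5, at any level of Ucma) were therefore the main comparison, with the limits on the other genes unchanged. Of the Pth1r-high cells 38 had at least 10 of Ucma. The remaining Col2a1-rich cells were 280 cycling cells with at least 5 UMIs of Top2a and Mki67 and 81 Col10a1-high cells.

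**Figure D1:**
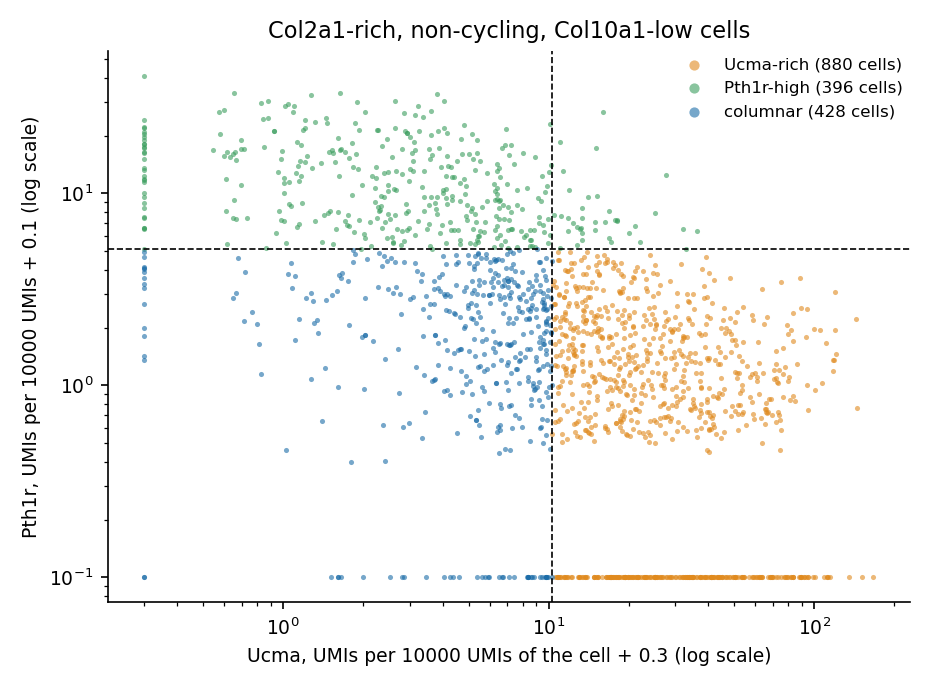
Each point is 1 cell, with Ucma (x axis, 0.3 added) and Pth1r (y axis, 0.1 added) in UMIs per 10000 UMIs of the cell on log scales, and dashed lines mark the limits of 10 and 5. The 428 columnar cells fill the lower left field without a gap to the 880 Ucma-rich or the 396 Pth1r-high cells.

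Members were sequenced between the other classes in depth. Their UMIs ran from 5086 to 50755 with a median of 22895, against medians of 17176 in Ucma-rich and 30191 in Pth1r-high cells. Between 1720 and 6381 genes were found per member (median 3985), and the mitochondrial share had a median of 3.13% and a maximum of 9.04%. Among the genes of the rule, Col2a1 ran from 100.4 to 1773 per 10000 UMIs with a median of 410, Ucma had a median of 5.69 and was at 0 in 16 cells, and Pth1r had a median of 1.98 and was at 0 in 42 cells. Col10a1 was at 0 in 323 members and Ptprc in 410.

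At the Ucma limit, 109 members had 8 to 10 and 89 cells just outside had 10 to 12 per 10000 UMIs. With UMIs summed over each set of cells and scaled to a total of 1000000 (CPM), Meg3 was at 509 and 629 CPM and Fgfr3 at 322 and 298 CPM in the 2 sets. At the Pth1r limit, 48 members at 4 to 5 and 43 cells at 5 to 6 had 1624 and 1996 CPM of Cdkn1c. Few cells lay at the Col2a1 limit, with 13 members at 100 to 150 and 9 cells at 50 to 100, and these differed, at 2577 and 425 CPM of Col9a1 and 13756 and 444 CPM of Col1a1. At the Col10a1 limit there was 1 cell on each side. Outside the limit of 5 UMIs of Top2a and Mki67 lay 11 cells with 5 to 6, and 13 members had 3 to 4.

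The chondrocyte label held for the markers that the rule did not use. Col9a1, a chain of collagen IX on the surface of cartilage fibrils, was found in all 428 members at 1.11 to 176 per 10000 UMIs with a median of 62.0. Matn3, a matrilin that bridges cartilage matrix components, was found in 424 members (99.1%) with a median of 29.8 and a maximum of 66.5. The aggregating proteoglycan gene Acan ran from 7.39 to 171 with a median of 67.0. The 1298 Ptprc-positive cells were above the Ptprc limit for members, which makes them leukocytes by that gene. They were also under the Col2a1 limit of 100 per 10000 UMIs. In this class Col9a1 reached 90.8 CPM against 6089 CPM in members and Matn3 34.7 against 3041 CPM. The Col2a1 limit kept cells rich in cartilage transcripts out of the class. Its low levels, and its shares given below, are therefore partly set by that choice and are not a background by Ptprc alone. When each cell was thinned to 5000 UMIs, which left out 4 Ucma-rich and 63 Ptprc-positive cells with fewer, a Matn3 UMI was found in 99.1% of members and 17.9% of Ptprc-positive cells (38.9% unthinned). The word columnar is the name of the class, and no value here shows where these cells lay.

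Before the comparisons, 61 members must be set apart from the other 367. When the members were clustered among themselves without the 7 genes of the rule, 7 sub-clusters formed. Sub-cluster 1 (53 cells) was led by the bone genes Bglap, Bglap2, Ibsp and Col1a1, and sub-cluster 5 (8 cells) by the vessel genes Fabp4 and Cdh5. Scrublet, which scores barcodes that may hold a pair of cells, marked 32 of these 61 cells (52.5%) and 5 of the other 367 (1.36%). Over all members it marked 37 (8.64%), against 40 Ucma-rich cells (4.55%), 14 Pth1r-high cells (3.54%) and 87 cycling cells (31.1%). The summed level of the 11 osteoblast markers was 35704 CPM in the 61 cells and 4399 CPM in the rest. The 12 myeloid markers summed to 6955 and 153 CPM, and the 7 endothelial markers to 323 and 16.7 CPM. In all members the most abundant gene of each of these lists was Sparc, S100a9 and Cdh5, with no marker of the 3 lists at 0. Values below are over all 428 members, and results that the 61 cells changed are given without them as well. Leaving them out changed the columnar class alone, since the other classes were not clustered in this way and kept such cells. Such results are therefore also given after removal from both classes, which here means that every cell with at least 20 Col1a1 or haemoglobin UMIs per 10000 was left out of both classes compared. That removal took out 26 of the 428 members, among them 19 of the 53 cells of sub-cluster 1 and 0 of the 8 cells of sub-cluster 5. Most of the 61 cells therefore stayed in, and the removal does not stand in for leaving them out. The 2 settings gave opposite directions for several genes of bone, vessel and blood cells.

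Against Ucma-rich cells, 7090 genes had at least 10 CPM in either class once the genes of the rule were set aside, and log2 ratios were taken of the summed CPM with 1 CPM added. Of these 46 (0.649%) were at least 2-fold higher in members, 97 (1.37%) at least 2-fold lower, and 143 (2.02%) passed in either direction. Against Pth1r-high cells 6963 genes were compared, of which 144 (2.07%) were higher, 127 (1.82%) lower and 271 (3.89%) passed in either direction. These shares over all genes are the background for the counts of each gene list below. Calls in both directions depended on the 61 cells. Without these cells 28 genes were higher and 202 lower than in Ucma-rich cells, of which 21 and 92 were among the first calls. Over Pth1r-high cells 62 were then higher and 160 lower, of which 57 and 111 were among the first calls. Leaving out, gene by gene, the 1 member with most of its UMIs kept 32 of 46 and 113 of 144 higher calls and every lower call.

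**Figure D2:**
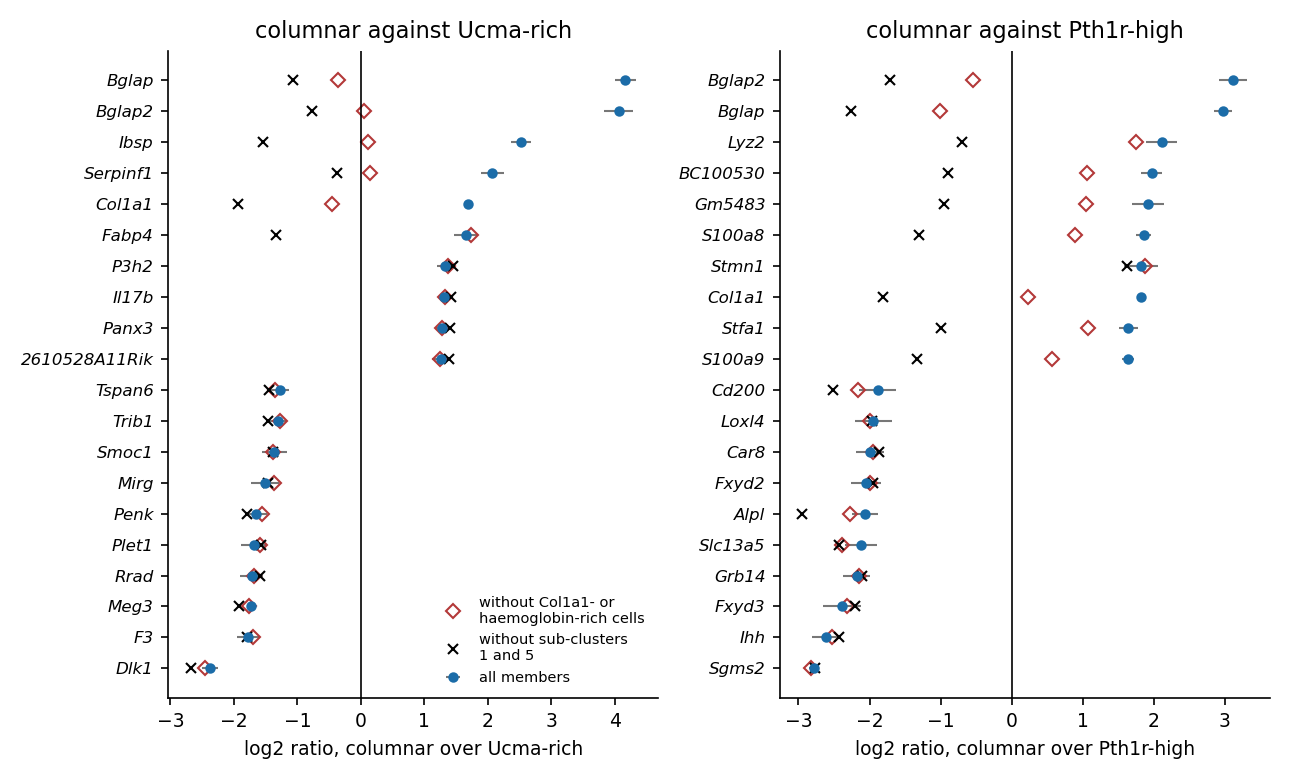
Log2 ratio of summed CPM (x axis, 1 CPM added) for the 10 genes furthest from 0 in each direction, over Ucma-rich cells (left) and Pth1r-high cells (right), where circles are all members with 95% counting intervals, diamonds leave out Col1a1- or haemoglobin-rich cells of both classes and crosses leave out sub-clusters 1 and 5. All lower genes keep their side in both settings, whereas Bglap moves from 4.17 to -1.07 over Ucma-rich cells without the sub-clusters.

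The cartilage matrix genes set the members apart from non-cartilage cells but little from their neighbours. The genes with most UMIs in members were Col2a1, Malat1, Tpt1, 3110079O15Rik (Snorc, a small cartilage proteoglycan), Col11a1 and mt-Atp6, followed by 9 others of which Col9a3 and Acan were matrix genes. Of 6 cartilage collagen genes compared, none differed 2-fold from either neighbour, with median log2 ratios of -0.14 over Ucma-rich and -0.16 over Pth1r-high cells. Over all genes compared these medians were 0.008 and 0.03. Col9a1 stood at 6089 CPM in members, 6849 in Ucma-rich and 6432 in Pth1r-high cells, and Acan at 6602, 6345 and 6803 CPM. The log2 ratios of the pair ran from -0.17 to 0.06. Between single members, the 25th and 75th percentiles of Col9a1 were 52.3 and 71.9 per 10000 UMIs, a spread that is not the error of a summed level.

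Some other matrix genes had summed levels in members between those of the 2 neighbouring classes. Hapln1, the link protein that fastens aggrecan to hyaluronan, had 3767 CPM in Ucma-rich, 5339 in columnar and 8693 in Pth1r-high cells. Comp, a matrix protein that binds collagen fibres, had 2908, 3658 and 6761 CPM in the same order. Matn1, another matrilin, was highest in Ucma-rich cells at 3008 CPM, with 2446 in members and 2240 in Pth1r-high cells. Of 20 cartilage matrix genes compared with Ucma-rich cells, Bgn passed 2-fold over all members, and Dcn, the gene of decorin, as well without the 61 cells (-1.33) and after removal from both classes (-1.19). Bgn, another small leucine-rich proteoglycan, had 643 CPM in members and 1297 in Ucma-rich cells (log2 ratio -1.01, -1.05 to -0.97), and of 19 compared with Pth1r-high cells none passed.

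**Figure D3:**
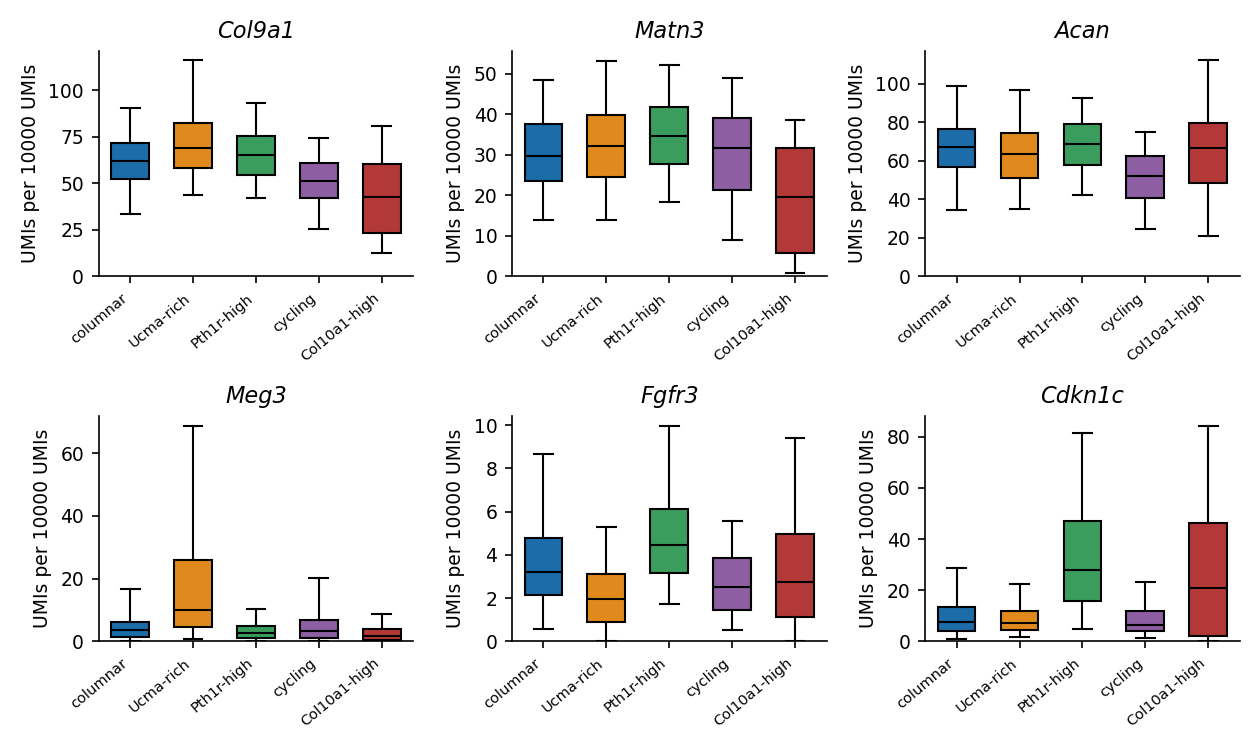
Levels per cell (y axis, UMIs per 10000 UMIs) of 6 genes in the 5 classes of Col2a1-rich cells, where boxes span the 25th to the 75th percentile, lines are medians and whiskers run from the 5th to the 95th percentile. Col9a1 and Acan boxes of columnar, Ucma-rich and Pth1r-high cells overlap, Meg3 is highest in Ucma-rich cells (median 10.1 against 3.55 in members) and Cdkn1c in Pth1r-high cells (27.7 against 7.62).

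Most chondrocyte transcription factors were within 2-fold of both neighbours. Sox9, the master regulator of cartilage, had 1109 CPM in members, 1242 in Ucma-rich and 1039 in Pth1r-high cells, and was found in 98.4% of members. Its partners Sox5 and Sox6 had 172 and 91.8 CPM. Mef2c, which drives hypertrophy, was the only one of 14 factors that passed 2-fold over Ucma-rich cells, at 199 against 86.0 CPM (1.20). In Pth1r-high cells Mef2c reached 562 CPM, and it was lower in members there (-1.49), as was Foxa2, a factor of late chondrocytes (-1.26). The Mef2c transcript was also found in Ptprc-positive cells at 199 CPM.

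Among the 10 top-ranked genes lower than in Ucma-rich cells, 3 lie in the imprinted Dlk1-Meg3 region. Dlk1 encodes a membrane protein that restrains differentiation and lies at chr12:109452823-109463336 on the forward strand (GRCm38). It had 56.3 CPM in members (51.7 to 61.2) against 296 in Ucma-rich and 36.7 in Pth1r-high cells, a log2 ratio of -2.37 (-2.50 to -2.25) over Ucma-rich cells. After thinning to 5000 UMIs, a Dlk1 UMI was found in 20.8% of members, 55.0% of Ucma-rich, 13.1% of Pth1r-high and 1.30% of Ptprc-positive cells (unthinned 43.5%, 75.3%, 41.9% and 3.64%). Meg3, a long noncoding RNA at chr12:109541001-109571726, had 453 CPM against 1502 (-1.73, -1.77 to -1.68) and was found in 73.4% of thinned members and 88.7% of thinned Ucma-rich cells (unthinned 92.8% and 98.4%). Mirg, the noncoding host of a miRNA cluster at chr12:109729764-109749460, had 17.3 CPM against 51.1 (-1.51, -1.74 to -1.29). The 3 transcripts lie on the same strand within the region, and all 3 levels in members were nearer to those of Pth1r-high cells (36.7, 349 and 11.9 CPM) than to those of Ucma-rich cells. Without the 61 cells the ratios over Ucma-rich cells were -2.68, -1.92 and -1.47.

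The miRNAs inside these host genes were not measured, but their sequences show what the hosts carry. RefSeq (GRCm38.p6) places 26 mature miRNAs with 25 different seeds within Mirg and 3 within Meg3. The first pair is the only one within Mirg that shares a seed, miR-134-5p shows another Mirg seed, and miR-770-5p lies in Meg3. Capitals mark the seed, bases 2 to 8 from the 5′ end, and all are on the forward strand at chr12:109735669-109735692, chr12:109739132-109739152, chr12:109734145-109734166 and chr12:109563710-109563731.
mmu-miR-453: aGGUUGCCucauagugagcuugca
mmu-miR-496a-5p: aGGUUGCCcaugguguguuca
mmu-miR-134-5p: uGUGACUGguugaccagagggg
mmu-miR-770-5p: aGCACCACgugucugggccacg

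For contrast, Col27a1, a fibrillar collagen gene of cartilage, hosts a miRNA pair and differed by less than 2-fold across the 3 classes. It had 1158 CPM in members, 1245 in Ucma-rich and 1445 in Pth1r-high cells. Its miRNAs lie at chr4:63256867-63256888 and chr4:63256904-63256924 on the forward strand, with the seed again in capitals.
mmu-miR-455-5p: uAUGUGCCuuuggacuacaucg
mmu-miR-455-3p: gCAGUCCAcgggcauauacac

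Some resting zone genes were also lower than in Ucma-rich cells. Of 10 compared with Ucma-rich cells, Gas1, Clu and F3 were at least 2-fold lower and none higher, with a median of -0.51. Gdf10 and Frzb of this list went the other way under 2-fold, at 0.62 and 0.45. F3, the tissue factor gene, had 30.3 CPM against 107 (-1.78), and Gas1, which binds hedgehog at the cell surface, 8.59 against 25.2 CPM (-1.45). Without the 61 cells Gas1 was at 4.02 CPM and -2.39, and after removal from both classes it was also at least 2-fold lower. Pthlh, which encodes PTHrP, had 0.81 CPM in members, 6.61 in Ucma-rich and 0.17 in Pth1r-high cells, too few UMIs to enter the comparison. Sfrp5, a secreted Wnt inhibitor, had 69.1 CPM in members, 126 in Ucma-rich and 32.4 in Pth1r-high cells. Thinned to 5000 UMIs, 24.3% of members had a Sfrp5 UMI, against 34.9%, 11.4% and 0.243% of Ucma-rich, Pth1r-high and Ptprc-positive cells (unthinned 51.2%, 51.3%, 37.4% and 0.648%). Against Pth1r-high cells, 9 resting zone genes were compared, with Sfrp5 (1.07) and Apoe (1.60) 2-fold higher and Frzb 2-fold lower (-1.52). Apoe was also abundant in Ptprc-positive cells (1770 CPM), and its ratio was 0.08 without the 61 cells but 1.68 after removal from both classes, while Sfrp5 was at 1.06 without the 61 cells. Over Ucma-rich cells, 5 of 10 resting zone genes were 2-fold lower without the 61 cells, with Apoe and Wif1 added, against 3 of 10 with Col1a1- or haemoglobin-rich cells left out of both classes.

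Other genes lower than in Ucma-rich cells by the fixed rank were Rrad, Plet1, Penk, Smoc1, Trib1 and Tspan6. Penk, which encodes the enkephalin precursor, had 30.4 CPM in members and 97.9 in Ucma-rich cells (-1.66), and Smoc1, a secreted regulator of BMP signalling, 23.0 against 60.8 CPM (-1.36). The small GTPase gene Rrad had 26.9 against 90.7 CPM. Levels of the 6 genes in members ran from 19.8 CPM (Plet1) to 51.2 CPM (Trib1).

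Among the genes higher than in Ucma-rich cells, a group was independent of the 61 cells. P3h2, a prolyl 3-hydroxylase that modifies collagen, had 112 CPM in members and 44.1 in Ucma-rich cells (1.33, 1.19 to 1.46). The cytokine gene Il17b had 517 against 207 CPM (1.31), and 533 in Pth1r-high cells, a ratio of -0.04 there. Panx3, a channel gene of maturing chondrocytes, had 233 against 95.5 CPM (1.28) and 590 in Pth1r-high cells. A Panx3 UMI was found in 55.4% of thinned members, 21.8% of Ucma-rich, 88.1% of Pth1r-high and 2.27% of Ptprc-positive cells (unthinned 82.7%, 41.7%, 98.7% and 4.70%). Without the 61 cells P3h2, Il17b and Panx3 were at 1.45, 1.42 and 1.41. The unnamed gene 2610528A11Rik had 101 against 41.6 CPM (1.26).

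The remaining genes among the 10 at the top of that list were 5 bone genes and the vessel gene Fabp4. Bglap, which encodes osteocalcin, had 349 CPM in members and 18.4 in Ucma-rich cells (4.17), but 41.9% of its UMIs came from 1 member and 17.5% of members had a UMI. In sub-cluster 1 Bglap stood at 2832 CPM and in sub-clusters 2, 3 and 4 at 9.45, 6.62 and 8.71 CPM. Col1a1, the bone collagen, had 1676 against 519 CPM over the classes, while its median per cell was 1.06 per 10000 UMIs in members and 1.41 in Ucma-rich cells. Without the 61 cells Bglap, Bglap2, Ibsp, Serpinf1 and Col1a1 were all lower than in Ucma-rich cells, at -1.07, -0.77, -1.55, -0.37 and -1.94. After removal from both classes the 5 ratios were -0.35, 0.04, 0.12, 0.14 and -0.46, so that none was 2-fold in either direction. Bglap and Bglap2 are near-identical copies, and how the counting divided their reads is uncertain. Fabp4 moved from 1.65 to -1.34 without the 61 cells but stood at 1.74 after removal from both classes, and 46.9% of its UMIs lay in 1 member of sub-cluster 5. That removal took out 0 of the 8 cells of sub-cluster 5.

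Some pre-hypertrophic genes were between the classes. Of 10 compared, Ihh (through 1 cell), Panx3 and Mef2c were 2-fold higher than in Ucma-rich cells (median 0.70), and Ihh, Panx3, Mef2c and Alpl were 2-fold lower than in Pth1r-high cells, with Ptch1 higher (median -0.44). Fgfr3, the receptor that restrains column growth, had 383 CPM in members, 234 in Ucma-rich and 486 in Pth1r-high cells, and 82.0%, 60.8% and 86.1% of thinned cells had a UMI against 3.24% of Ptprc-positive cells (unthinned 96.5%, 88.8%, 99.0% and 8.34%). Alpl, the phosphatase of mineralising cells, had 28.3 CPM in members and 122 in Pth1r-high cells (-2.07). Alpl was at -2.95 over Pth1r-high and -0.18 over Ucma-rich cells without the 61 cells, and after removal from both classes at -2.27 and 0.53. Of 5 hypertrophic genes compared over all members, Ibsp was 2-fold higher than in Ucma-rich cells and none passed over Pth1r-high cells. The list summed to 847 CPM over all members and 218 CPM without the 61 cells. Spp1, Ibsp, Mmp13 and Mmp9 were then 2-fold lower than in both neighbours, at -2.02, -1.55, -1.45 and -2.48 over Ucma-rich and -2.05, -3.47, -1.41 and -1.501 over Pth1r-high cells. With Col1a1- or haemoglobin-rich cells left out of both classes, 0 of 5 passed over Ucma-rich cells and Ibsp was lower than in Pth1r-high cells, so the direction of these genes rests on which cells were kept.

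Hedgehog pathway genes differed in direction between the classes. Ihh itself had 21.1 CPM in members, 7.89 in Ucma-rich, 134 in Pth1r-high and 214 in Col10a1-high cells. Of its 209 UMIs in members 66 (31.6%) lay in 1 cell of sub-cluster 2, and without that cell the level was 14.5 CPM and the ratio over Ucma-rich cells 0.80, under 2-fold, in place of 1.32. After thinning, an Ihh UMI was found in 6.07% of members (4.01 to 8.77%), 2.40% of Ucma-rich, 33.6% of Pth1r-high and 0.567% of Ptprc-positive cells (unthinned 15.4%, 8.90%, 66.4% and 1.13%). Ptch1, the Ihh receptor and itself a target of the pathway, was highest in members, with 226 CPM in members, 197 in Ucma-rich, 109 in Pth1r-high and 37.9 in Col10a1-high cells. Its thinned share was 63.1% in members (58.3 to 67.7%), 49.4% in Ucma-rich, 41.9% in Pth1r-high and 3.64% in Ptprc-positive cells (unthinned 90.9%, 82.5%, 83.6% and 8.91%). Gli1, another target, had 16.9 CPM in members, between 27.9 in Ucma-rich and 7.25 in Pth1r-high cells, and thinned shares of 8.18%, 12.4% and 4.80% (unthinned 29.4%, 36.9% and 17.7%). Hhip, of the same pathway, had 4.45 CPM in members. Its thinned shares were 2.34% in members, 4.34% in Ucma-rich, 0.758% in Pth1r-high and 0.324% in Ptprc-positive cells (unthinned 7.71%, 11.4%, 3.03% and 0.486%). Among 9 pathway genes compared with Pth1r-high cells, Ptch1 (1.05) and Gli1 (1.12) were 2-fold higher and Ihh (-2.61) and Disp1 (-1.11) 2-fold lower. Of 10 compared with Ucma-rich cells, Ihh was higher as described and the co-receptors Boc (-1.54) and Gas1 were lower.

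**Figure D4:**
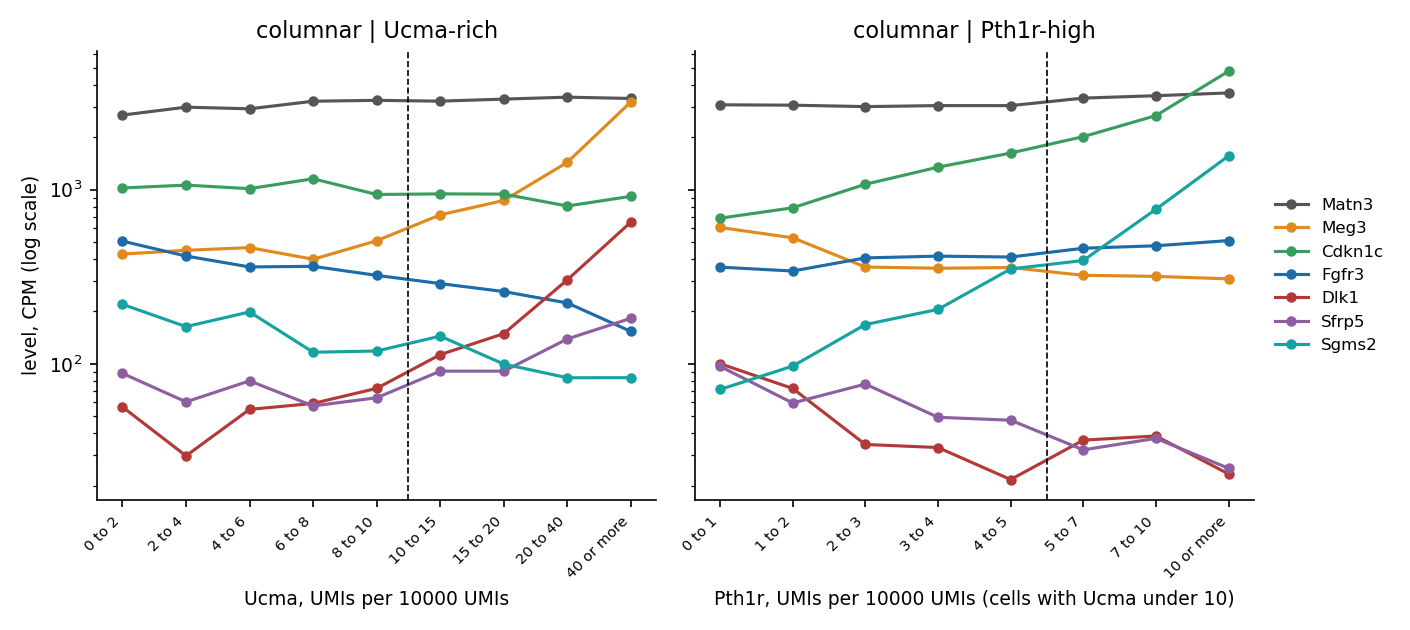
Summed CPM (y axis, log scale) of 7 genes in bins of Ucma (left, UMIs per 10000) and in bins of Pth1r among cells with Ucma under 10 (right), with the dashed line at the limit of the class. Across the Ucma limit Meg3 climbs from 509 to 3198 CPM, and across the Pth1r bins Cdkn1c climbs from 686 to 4793 CPM while Matn3 lies between 2999 and 3595 CPM.

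Within the members, several genes varied with Pth1r. From 118 members with under 1 Pth1r UMI per 10000 to 48 members with 4 to 5, Cdkn1c, an inhibitor of the cell cycle in maturing chondrocytes, had 686, 787, 1074, 1347 and 1624 CPM. Sgms2, a sphingomyelin synthase gene, had 71.3, 97.0, 168, 205 and 351 CPM over the same bins. Panx3 had 126, 186, 250, 331 and 348 CPM, and Mef2c 122, 147, 210, 256 and 338 CPM. All 4 were higher in each next bin inside the class, and beyond the limit they reached 4793, 1564, 686 and 721 CPM in cells with at least 10. Ptch1 ran the other way, from 241 to 189 CPM inside the class and to 76.9 CPM beyond it, and Sfrp5 from 96.7 to 47.5 and to 25.1 CPM. The median UMIs of these bins climbed as well, from 19780 in the lowest bin to 25464 at the limit and 32201 in the highest, and the part of depth in these trends was not tested.

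Along Ucma, Meg3 and Dlk1 were higher in every bin beyond the limit than in any bin of members. From the lowest bin (0 to 2 per 10000 UMIs, 68 cells) to the highest inside the class (8 to 10, 109 cells), Meg3 had 427, 449, 465, 399 and 509 CPM. It then stood at 717, 867, 1438 and 3198 CPM in the 4 bins of Ucma-rich cells. Dlk1 was between 29.6 and 72.3 CPM in every bin of members and reached 652 CPM in cells with at least 40. Fgfr3 had 506 CPM in the lowest bin and 322 in the highest bin of members, and 153 CPM at the far end. Sox9 differed inside the class, with 812 CPM in the lowest and 1356 CPM in the highest bin. Hbb-bs differed between these bins as well, at 6894 and 181 CPM. With Col1a1- or haemoglobin-rich cells left out (6 and 4 cells), Hbb-bs was at 203 and 185 CPM in the 2 bins, Sox9 at 844 and 1383 CPM and Fgfr3 at 529 and 332 CPM. Median UMIs were 23571 and 22489 in these 2 bins of members and 13491 in the last Ucma-rich bin.

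Of the 127 genes lower than in Pth1r-high cells, Sgms2 ranked first. It had 158 CPM in members and 1096 in Pth1r-high cells (-2.78, -2.86 to -2.71). Next by rank were Ihh, Fxyd3, Grb14, Slc13a5, Alpl, Fxyd2, Car8, Loxl4 and Cd200. The citrate transporter gene Slc13a5 had 16.3 against 74.2 CPM (-2.12) and the lysyl oxidase-like gene Loxl4, which cross-links collagen, 12.5 against 51.1 CPM (-1.95). Cdkn1c had 1034 against 3618 CPM (-1.81), with 893 in Ucma-rich cells. Sgms2 and Cdkn1c also varied with Pth1r inside the members, and over the settings tried, another Pth1r limit among them, the Sgms2 ratio ran from -3.06 to -2.56.

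Of the 10 top-ranked genes higher than in Pth1r-high cells, 9 were bone or myeloid genes. Lyz2, S100a8, S100a9, Stfa1, BC100530 and Gm5483 are abundant in myeloid cells, and S100a8 had 293 CPM in members and 80.1 in Pth1r-high cells but 12424 in Ptprc-positive cells. In sub-cluster 1 S100a8 stood at 2200 CPM, and in the other sub-clusters at 16.7 to 38.5 CPM. The stefin genes Stfa1, BC100530 and Gm5483 are close copies, so their separate counts are uncertain. Without the 61 cells the 6 myeloid genes, in the order given, were lower than in Pth1r-high cells, at -0.70, -1.30, -1.33, -0.998, -0.89 and -0.95. After removal from both classes all 6 were instead higher than in Pth1r-high cells, at 1.75, 0.90, 0.57, 1.08, 1.06 and 1.05. The exception was Stmn1, a microtubule regulator of dividing cells, with 50.3 CPM in members, 47.3 in Ucma-rich, 13.5 in Pth1r-high and 480 in cycling cells. Its ratio over Pth1r-high cells was 1.83 (1.58 to 2.07), and 1.62 without the 61 cells.

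Other cell cycle genes, apart from Top2a and Mki67, differed from Pth1r-high cells in the same direction. Of 17 S and G2/M phase genes compared with Pth1r-high cells, the counting intervals of 16 lay above 0 and none below, against 27.1% above and 22.6% below among all genes compared, and Mcm4 (1.40), Mcm7 (1.37), Ccnb2 (1.89), Birc5 (1.75) and Stmn1 passed 2-fold (median 0.80). Mcm4 and Mcm7 belong to the replication helicase, and Ccnb2 and Birc5 act in mitosis. Against Ucma-rich cells none of 18 passed, and the median was -0.23. There the counting intervals of 9 lay below 0 and of 3 above, against 21.6% and 23.1% of all genes compared. The levels were low: Birc5 had 18.8 CPM in members against 332 in cycling cells, and the limit on Top2a and Mki67 removed the cells richest in such genes from all 3 classes. Sub-cluster 7 (21 cells), led by Cenpa, Cdca3, Birc5, Ccnb2 and Cdkn3, had 409 CPM of Stmn1. It held 48.9% of the Birc5, 48.3% of the Ccnb2 and 34.5% of the Stmn1 UMIs of all members. When these 21 cells were left out of the members alone, Birc5 fell under 2-fold over Pth1r-high cells (0.91), while Ccnb2 stood at 1.09, Stmn1 at 1.29, Mcm4 at 1.44 and Mcm7 at 1.35, and the median of the 17 was 0.59. Of 12 cyclin and inhibitor genes compared with Pth1r-high cells, Cdkn1c and Rb1 were 2-fold lower and none higher, with Cdkn1a at -0.99 over all members and -1.10 without the 61 cells, and of 11 compared with Ucma-rich cells none passed.

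Gdf10, a ligand of the TGF-beta family in the resting zone list, ranked after Fabp4, Serpinf1 and Col1a1 among the genes that were higher in members than in every other Col2a1-rich class. It had 304 CPM in members (294 to 315), 197 in Ucma-rich, 187 in Pth1r-high, 201 in cycling and 26.0 in Col10a1-high cells, a ratio of 0.60 over the next class and so under 2-fold. A Gdf10 UMI was found in 70.8% of thinned members (66.2 to 75.1%), 44.3% of Ucma-rich (41.0 to 47.7%), 53.3% of Pth1r-high (48.2 to 58.3%) and 1.05% of Ptprc-positive cells (unthinned 93.5%, 65.8%, 90.9% and 2.51%). Without the 61 cells the level was 320 CPM. Of 2260 genes with at least 50 CPM, 245 (10.8%) were highest in members among the 5 classes, and 0 were so by 2-fold.

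Among BMP and TGF-beta pathway genes, 23 were compared with Ucma-rich cells and 24 with Pth1r-high cells. Chrdl1, a secreted BMP antagonist, had 14.2 CPM in members, 3.94 in Ucma-rich and 48.4 in Pth1r-high cells, and Bambi, a decoy receptor, 39.4, 17.9 and 60.8 CPM. Both were 2-fold higher than in Ucma-rich cells, and the ligand genes Bmp5 and Bmp7 were 2-fold lower (-1.12 and -1.26). Bmp2, Bmp6 and Chrdl1 were 2-fold lower than in Pth1r-high cells (Bmp2 at 42.3 against 85.7 CPM, the others at -2.29 and -1.70), and none was higher.

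Genes of the FGF, IGF and Wnt pathways differed in a few members each. Of 7 FGF pathway genes, Fgfr1 (54.5 against 112 CPM) and the feedback inhibitor Spry2 (12.4 against 36.0 CPM) were 2-fold lower than in Ucma-rich cells, and none passed against Pth1r-high cells. Of 11 IGF pathway genes, the binding protein gene Igfbp7 was 2-fold lower than in Ucma-rich cells (-1.04). Igfbp3 and Igfbp4 were 2-fold higher than in Pth1r-high cells, but at -0.74 and -0.28 without the 61 cells and at 2.27 and 1.12 after removal from both classes. Over Ucma-rich cells Igfbp3, Igfbp4 and Igfbp5 were at -2.20, -1.58 and -2.19 without the 61 cells, where Igfbp3 was under 10 CPM in both classes, and Igfbp5 was at -2.05 over Pth1r-high cells. After removal from both classes, the 3 ratios over Ucma-rich cells were 1.498, -0.35 and -0.71, and Igfbp5 was at -0.64 over Pth1r-high cells. The imprinted growth factor gene Igf2 had 123 CPM in members, 193 in Ucma-rich and 93.2 in Pth1r-high cells, and its neighbour H19 2813, 3219 and 2400 CPM. Of 21 Wnt pathway genes compared with Ucma-rich cells, Lef1, a nuclear effector, and Notum, which inactivates Wnt ligands, were 2-fold lower, and Wif1 too without the 61 cells but not after removal from both classes (-0.53). Of 20 compared with Pth1r-high cells, Lef1 (1.03) and Sfrp5 were higher, and Wnt4 (200 against 430 CPM), Wnt5a (-1.11) and Frzb were lower.

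No glycolysis or low-oxygen gene passed 2-fold over Ucma-rich cells. The counting intervals of 19 of the 23 compared lay above 0 and of 3 below, against 23.1% and 21.6% of all genes compared, with a median of 0.37 (0.008 over all genes). Gapdh had 3040 CPM in members against 2090 (0.54), Ldha, which makes lactate, 1796 against 1175 (0.61), and Bnip3, a mitophagy receptor, 416 against 254 (0.71). For Ldha the 25th and 75th percentiles were 13.3 and 21.7 per 10000 UMIs in members and 5.26 and 15.1 in Ucma-rich cells, so the classes overlap. Vegfa went the other way with 109 against 154 CPM (-0.49). Against Pth1r-high cells the median was -0.07, with 2 intervals above and 11 below 0 among 24 genes (27.1% and 22.6% of all genes), none past 2-fold, and Epas1 was 2-fold lower without the 61 cells but at 0.14 after removal from both classes. In the 61 cells the list summed to 8881 CPM and in the other members to 13978.

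Of 20 immediate early genes compared with Ucma-rich cells, Egr3 passed 2-fold (-1.14). The counting intervals of 16 lay below 0 and of 2 above, against 21.6% and 23.1% of all genes compared, and the median was -0.31. Egr1 had 987 CPM in members, 1282 in Ucma-rich and 689 in Pth1r-high cells. Of 19 compared with Pth1r-high cells none passed (median 0.009). Nr4a1 was 2-fold lower than in both neighbours without the 61 cells, and at -0.97 and -0.39 after removal from both classes.

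With all members a few collagen processing genes passed, a larger share than over all genes compared (2.02% over Ucma-rich and 3.89% over Pth1r-high cells). Among 27 collagen processing genes compared with Ucma-rich cells, P3h2 and Lox were higher and Loxl1 lower, and Lox, 27.4 CPM over all members, was at 8.87 CPM and -0.31 without the 61 cells, and at 0.42 after removal from both classes. Among 26 compared with Pth1r-high cells P4ha3, a collagen prolyl hydroxylase subunit, was higher (43.1 against 16.9 CPM) and P3h2 and Loxl4 lower, where P3h2 was at -0.92 and Lox at -1.31 without the 61 cells and at -1.01 and -0.79 after removal from both classes. None of 21 proteoglycan synthesis genes and none of 20 unfolded protein response genes passed 2-fold in either comparison, not far from those shares for lists of this size. Of 16 protease and inhibitor genes none passed over Ucma-rich cells with all members, and Adamts5, an aggrecan-cutting protease, was at 1.21 over Pth1r-high cells and 0.41 without the 61 cells, but 1.12 after removal from both classes. Mmp9 and Mmp13, as above, and the protease inhibitor gene Serpine2 (-2.29 and -1.77) were 2-fold lower than in both neighbours without the 61 cells. None of the 16 was 2-fold lower in either comparison with Col1a1- or haemoglobin-rich cells left out of both classes.

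Irx3 and Irx5, the genes altered in this mouse, were found at low levels. Members had 5.25 CPM of Irx3 and 8.08 CPM of Irx5, against 6.42 and 4.01 in Ucma-rich cells, all under the 10 CPM that a comparison needed. Pth1r-high cells had 13.0 and 22.7 CPM (-1.16 and -1.38 for members) and Col10a1-high cells 23.1 and 83.7 CPM. Thinned shares of members were 3.04% for Irx3 and 3.27% for Irx5, with 1.62% and 0.891% in Ptprc-positive cells (unthinned 9.11% and 14.7%, with 4.78% and 2.51%). Irx2 had 10 UMIs in members, and Irx1, Irx4 and Irx6 had 0. The study writes the Irx3 deletion as one made in HCs, and whether these cells carry it was not tested. Without a wild-type sample an effect of the Irx alleles cannot be told apart from the usual level of these genes.

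The reporter marked few of these cells. The study counts a cell as HC-derived at a WPRE value above 14, where WPRE is an element of the reporter transcript. The cutoff was taken here to be in UMIs, and 4 members passed (0.935%, 0.255 to 2.38%). The shares were 0.227% in Ucma-rich, 1.52% in Pth1r-high, 1.79% in cycling and 46.9% in Col10a1-high cells. In Ptprc-positive cells 1.46% passed, so the share in members was not above the share there. That class held 99 cells marked by Scrublet and 47 with at least 20 Col1a1 UMIs per 10000, and reached 108 WPRE UMIs in 1 cell. What its passing cells are was not tested, so its share is not a clean background. The 4 members had 27, 34, 41 and 58 WPRE UMIs and 205 to 545 Col1a1 UMIs per 10000, all belonged to sub-cluster 1, and Scrublet marked 1 of them. The 61 cells were set apart after the data were seen and held all 4 of these members, so that 0 of the other 367 passed by construction. The highest WPRE count among these 367 was 3. A tdTomato UMI was found in 7 members (1.64%, 0.660 to 3.34%) and in 0.847% of Ptprc-positive cells (0.424 to 1.51%), so the 2 intervals overlap.

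Members varied among themselves in 5 further sub-clusters, which are called by their leading genes. These genes defined the sub-clusters and are a description. Sub-cluster 2 (114 cells) was led by Cxcl1, Gm16685, Car8, F3 and Il11 and had 1386 CPM of Cdkn1c and 292 of Panx3. Sub-cluster 4 (91 cells) was led by 4 haemoglobin genes and Espn, and 6 of its cells had at least 20 haemoglobin UMIs per 10000. Sfrp5 stood there at 156 CPM, Fgfr3 at 630, H19 at 4001 and Sox9 at 590 CPM, against 1503 CPM of Sox9 in sub-cluster 2. These 2 groups were formed on the expression values themselves, so their differences in chondrocyte genes are a description as well. Sub-cluster 3 (97 cells), led by Gm10036, Dlx5, Txnip, Hes1 and Heyl, had the highest Ptch1 at 297 CPM. Sub-cluster 6 (44 cells), led by Medag, Krt16, Cryab, Mlf1 and Dusp14, had the highest Matn1 at 3527 CPM and Col9a1 at 7713 CPM. Median UMIs ran from 18020 to 24741 over the 5 sub-clusters and mitochondrial shares from 2.44 to 3.93%, and their part in the grouping was not tested.

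**Figure D5:**
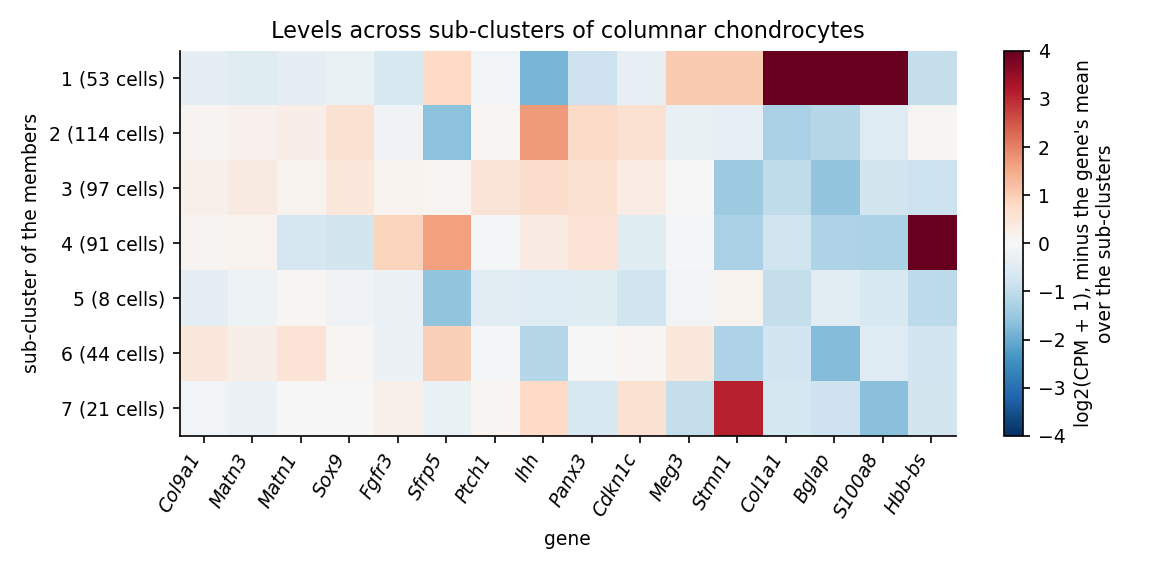
Colour gives log2(CPM + 1) of 16 genes (columns) in the 7 sub-clusters of the members (rows), minus the mean of the gene over the sub-clusters, and saturates at 4 in either direction. Col1a1, Bglap and S100a8 are high in sub-cluster 1, Hbb-bs in sub-cluster 4 and Stmn1 in sub-cluster 7, while Col9a1 and Matn3 vary little.

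Haemoglobin and other cell types' transcripts differed between the classes. The 7 erythroid markers summed to 3054 CPM in members, 6851 in Ucma-rich and 1862 in Pth1r-high cells, with Hbb-bs the most abundant, and 5 of 7 were 2-fold lower than in Ucma-rich cells while none of 5 compared with Pth1r-high cells passed. When the 61 cells were left out, 2 of 7, Hba-a2 and Alas2, were 2-fold lower than in Ucma-rich cells (-1.02 and -1.09), and Hba-a1 and Hba-a2 were 2-fold higher than in Pth1r-high cells (1.04 and 1.06). After removal from both classes, which used haemoglobin itself, 0 of 7 and 0 of 5 passed. Leaving out the cells with at least 20 Col1a1 or haemoglobin UMIs per 10000 (26 members, 53 Ucma-rich and 13 Pth1r-high cells) brought the erythroid sums to 349, 413 and 320 CPM. With those cells left out of both classes, 29 of 46 and 120 of 144 higher calls and 85 of 97 and 121 of 127 lower calls remained. The myeloid markers then summed to 608, 935 and 384 CPM. The part of these transcripts in the smaller differences was not tested.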

How the data were processed

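The authors deposited UMI counts per gene and barcode, made per the labels and methods with Cell Ranger 3.1.0 on mm10, and a count matrix of exogenous sequences that includes WPRE and tdTomato, joined here by barcode. The sources used here do not give the annotation release, and coordinates are from GENCODE M21. Members, gene lists and ranks were chosen with earlier results of these data known. Counts were summed per class and scaled to CPM, and log2 ratios used 1 CPM added, genes with at least 10 CPM in either class and a limit of 2-fold. Named were the listed genes, the 10 with the largest ratio in each direction at 50 CPM in either class and 100 UMIs over both, the 10 highest among the 5 classes and the 15 most abundant. With 1 library no test was run. Doublets were scored with Scrublet (expected share 10%, 588 of 14181 barcodes or 4.15% marked) and kept. Members were clustered with Leiden (2000 variable genes, 20 components, 15 neighbours, resolution 0.5, seed 1). Of 478 list entries 2 were not found. Python 3.11.15, scanpy 1.11.5, numpy 2.4.6, scipy 1.17.1, pandas 2.3.3, igraph 0.11.9 and matplotlib 3.10.9 were used, and the ratios were tested on simulated data. Alternatives moved the added CPM, the minimum level, the cells left out and most limits. These were the limits on genes found, mitochondrial share, Col2a1, Ucma, Pth1r, and Top2a and Mki67. The limits on Col10a1 and Ptprc were not moved.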

Additional observations from a re-analysis of the deposited data

Results flagged for a closer look

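Among the exogenous sequences outside the comparisons, EGFP had 60 UMIs in 53 barcodes and CRE 6 UMIs in 6 barcodes over the whole gene matrix, above the 3 counts that a count of 0 allows. Columnar cells held 1 EGFP UMI and 0 CRE UMIs, and Ptprc-positive cells held 0 EGFP UMIs. Pth1r-high cells held 10 EGFP UMIs, Col10a1-high cells 3 and the kept cells outside the named classes 43.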

How the results depend on the processing

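With 1 library, leaving out a replicate was not possible. No paired analysis was possible because the 4 entries hold 1 library. The settings that left out sub-clusters 1 and 5, or sub-cluster 7, or the member with most UMIs of a gene, and the bins without Col1a1- or haemoglobin-rich cells, were chosen after seeing the data. The number of columnar cells was 176 with Ucma under 5, 782 with Ucma under 20 and 216 with Pth1r under 2. The share above the WPRE limit was 0.251% with Col2a1 at least 200, and 0% with Pth1r under 2, without Col1a1- or haemoglobin-rich cells and without the sub-clusters. Leaving out Col1a1- or haemoglobin-rich cells, or the sub-clusters, took out every cell that had passed. Over 12 settings the share ran from 0 to 1.64%. The highest was for members with at least 1 tdTomato UMI, counted in place of the WPRE limit. The 46 genes higher than in Ucma-rich cells became 78 (Ucma under 20), 91 (Pth1r under 2), 30 (Col2a1 at least 200), 18 (10 CPM added), 15 (at least 50 CPM), 102 (no minimum) and 28 (sub-clusters left out). For the last 4 of these settings, the 97 lower genes became 41, 31, 212 and 202, and the 144 higher than in Pth1r-high cells 39, 26, 381 and 62. The 127 lower than in Pth1r-high cells became 53, 56 and 197 under the first 3 of the 4. Fewer or more genes enter under the minimum by construction, and the causes of the other shifts were not tested.

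Of 640 values for 40 gene ratios, 589 stayed at least 2-fold in the same direction, 28 kept the direction under 2-fold and 23 reversed, 12 of them by 2-fold or more. In every setting 24 ratios were 2-fold in the same direction, among them all 20 lower ones. With Ucma under 5, Bglap was -1.64 and Bglap2 -2.07 over Ucma-rich cells. With Pth1r under 2, Ibsp was -0.48 over Ucma-rich and Bglap -0.094 over Pth1r-high cells. Without Col1a1- or haemoglobin-rich cells, Bglap was -0.35 and Col1a1 -0.46 over Ucma-rich, and Bglap2 -0.55 and Bglap -1.01 over Pth1r-high cells. Without the sub-clusters, over Ucma-rich cells Bglap was -1.07, Bglap2 -0.77, Ibsp -1.55, Serpinf1 -0.37, Col1a1 -1.94 and Fabp4 -1.34. Over Pth1r-high cells Bglap2 was then -1.72, Bglap -2.26, Lyz2 -0.70, BC100530 -0.89, Gm5483 -0.95, S100a8 -1.30, Col1a1 -1.82, Stfa1 -0.998 and S100a9 -1.33.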

Other observations

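Markers of other neighbouring tissues were found in the columnar cells at the following summed levels. The 13 perichondrial or fibroblast markers summed to 825 CPM in members, 1136 in Ucma-rich and 729 in Pth1r-high cells, with Lum the most abundant at 407 CPM, and none of the 4 compared passed 2-fold in either comparison with all members, while Col3a1 and Dcn were 2-fold lower than in Ucma-rich cells without the 61 cells of sub-clusters 1 and 5, and also with Col1a1- or haemoglobin-rich cells left out of both classes. The 6 mural markers summed to 409 CPM in members, of which Cspg4 gave 327 CPM. They summed to 467 CPM in Ucma-rich cells, 413 in Pth1r-high cells and 376 in the kept cells outside the named classes. Acta2, smooth muscle actin, had 43.1 CPM in members, 71.5 in Ucma-rich and 8.34 in Pth1r-high cells, and its log2 ratio over Pth1r-high cells was 2.12 without the 61 cells. The 6 marrow stromal markers summed to 144 CPM, and Cxcl12 had 33.2 CPM over all members but 3.08 CPM without the 61 cells. The Cxcl12 log2 ratio over Pth1r-high cells was 1.08 over all members, -1.99 without the 61 cells and 1.16 with Col1a1- or haemoglobin-rich cells left out of both classes. Of 9 articular or superficial zone genes, Col22a1 was 2-fold higher than in both neighbours at 13.1 CPM, and at 2.37 CPM without the 61 cells. With Col1a1- or haemoglobin-rich cells left out of both classes Col22a1 was at -0.25 over Ucma-rich and 0.40 over Pth1r-high cells. Prg4, which encodes lubricin, had 91 UMIs in members and was found in sub-cluster 1 alone. The 8 skeletal muscle markers summed to 58.7 CPM in members, with Tnnt3 at 52.4 CPM and Myod1, Myog, Pax7, Ckm and Myh3 at 0. Their sums were 62.3 CPM in Ucma-rich, 61.9 in Pth1r-high and 62.2 in cycling cells, against 5.48 CPM in the kept cells outside the named classes. The 6 osteoclast markers summed to 60.4 CPM in members with Ocstamp at 0, and the 8 lymphoid markers to 112 CPM.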
